A study of Drosophila melanogaster and Drosophila miranda with 8 samples.

Results

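The CLAMP peaks of the *D. melanogaster* X-chromosome were taken as all peaks that the deposited lists place on sequence X, with the separate heterochromatic sequence XHet left out. There were 1568 such peaks of 9080 in replicate 1 and 1569 of 8792 in replicate 2, or 3137 of the 33972 peaks in the lists of the whole series. The chromatin came from whole wild type female larvae of *D. melanogaster* at instar 3, kept at 21°C, and was precipitated with an antibody against CLAMP and sequenced (ChIP-seq). The study holds 2 ChIP libraries and 2 input libraries (chromatin with no antibody) of this species, and as many from *D. miranda* larvae kept at 18°C. Peaks were called on each ChIP library by the authors, and the input libraries enter only through those calls. Chromatin was made from pooled whole larvae, and nothing states that the replicates came from separate cultures, so the spread between them may be technical. The peaks are a mixture over all larval tissues, and a site bound in few cells cannot be told apart from a site bound weakly in many. The lists carry no read numbers for single peaks, and the read totals that the study states for its libraries were not used here. All positions are on build dm3, counted from 1.

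CLAMP is a zinc finger protein that binds GA-rich sequence and GA dinucleotide repeats throughout the genome. In males it links the MSL (Male-Specific Lethal) complex to the X-chromosome, where the complex spreads over active genes, deposits H4K16ac and raises their transcription, so that the single male X matches the X pair of females. Females do not assemble the MSL complex, because its MSL2 subunit is not made in them. The female larvae therefore give CLAMP occupancy of the X in a setting where both X copies are present and the dosage compensation complex is not. A question the design addresses is whether X-linked CLAMP sites stand apart from autosomal ones in number, strength or spacing in these animals.

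In the female larvae, CLAMP peaks were no denser on the X-chromosome than on the autosomes. The X carried 69.9 peaks per Mb in replicate 1 (exact 95% Poisson interval 66.5 to 73.5) and 70.0 in replicate 2 (66.6 to 73.5). The autosomes 2L, 2R, 3L, 3R and 4 together carried 75.8 and 70.1 peaks per Mb. The density ratio of X to autosomes was 0.922 in replicate 1 (95% interval 0.873 to 0.974, exact conditional binomial test, two-sided, p = 0.00359) and 0.999 in replicate 2 (0.945 to 1.06, p = 0.989). Regions in which peaks of both replicates overlapped had a ratio of 1.04 (0.937 to 1.16, p = 0.43 by the same exact test). Adjusted for 3 tests by the Benjamini-Hochberg procedure, the exact p-values were 0.0108, 0.989 and 0.645. If counts are taken as Poisson, the X was thus lower in replicate 1 and not distinguishable from the autosomes in replicate 2 or in the shared regions. The intervals cover Poisson counting error only. Counts per 1 Mb window on X and the large arms spread more widely, with variance over mean of 1.17 to 2.70 in replicate 1 and 1.15 to 1.80 in replicate 2. The intervals are therefore too narrow and the p-values of the exact test too small. Peaks of 1 library are not independent replicates, and 2 libraries allow no exact permutation test over samples that could reach 0.05. With the 50% of peaks of highest value in each list, the ratio was 1.09 in replicate 2 (p = 0.0201) and 1.22 for shared regions (p = 0.0364, both by the same exact test), but 0.923 in replicate 1. With ties, this setting kept 53.4% of the peaks in replicate 1 and 50.5% in replicate 2. It is 1 of several alternative settings, and its p-values from the exact test are not adjusted.

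In replicate 1 the interval of the ratio lay below 1 against one arm only, 3R, the densest arm of that list. The ratio of X to 3R was 0.826 (95% interval 0.774 to 0.880). Against 2L, 2R and 3L the X was at 0.990, 0.949 and 0.964, with intervals that all include 1. In replicate 2, where 3R was no denser than the other large arms, the ratio of X to 3R was 0.996 (0.931 to 1.06). Chromosome 4, the small and largely heterochromatic dot chromosome, was at 93 and 114 peaks, and the ratio of X to it was 0.967 (0.784 to 1.21) in replicate 1 and 0.789 (0.652 to 0.963) in replicate 2.

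**Figure D1:**
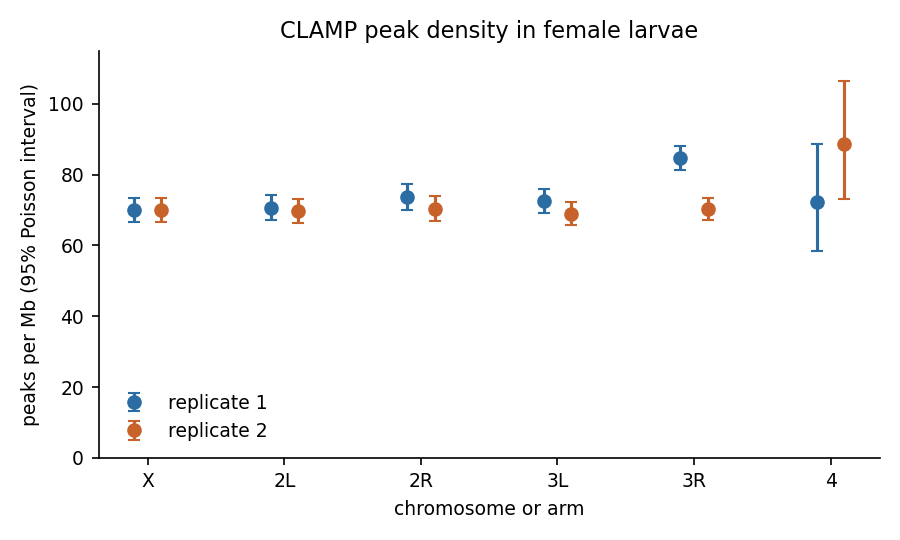
Peaks per Mb on X and on each autosomal arm in replicate 1 (blue) and replicate 2 (orange); points are densities and bars are exact 95% Poisson intervals, which cover counting error only. The X sits at 69.9 and 70.0 peaks per Mb, level with 2L in both replicates, while 3R stands above the other large arms in replicate 1 but not in replicate 2.

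For each peak the authors deposited 1 value, which the lists do not name and which is read here as the log2 ratio of ChIP to input tags, each normalized by library size. In replicate 1 the X peaks had a median log2 value of 3.12, with quartiles of 2.84 and 3.49 and extremes of 0.50 and 6.23. The median log2 value of replicate 2 was 2.27, with quartiles of 1.91 and 2.78 and extremes of 0.95 and 6.97. X peaks thus stood at medians of 8.70-fold and 4.82-fold ChIP over input on this reading. For replicate 1 the reading has a limit, given below with the steps of its values. The autosomal medians were 3.12 in replicate 1, identical to that of the X, and 2.20 in replicate 2, a difference of 0.07 on the log2 scale. For replicate 2 the X median was above those of 2R, 3L and 3R, by 0.09, 0.06 and 0.18, in log2 units. The differences from 2L and from chromosome 4 went the other way, at -0.01 and -0.74, and the 114 peaks of chromosome 4 had the highest median of the arms, 3.00. No test is given for these medians, since peaks of a library are not replicates. The SD of log2 values among X peaks was 0.57 in replicate 1 and 0.74 in replicate 2. It is the spread of single peaks and does not measure the uncertainty of a median.

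**Figure D2:**
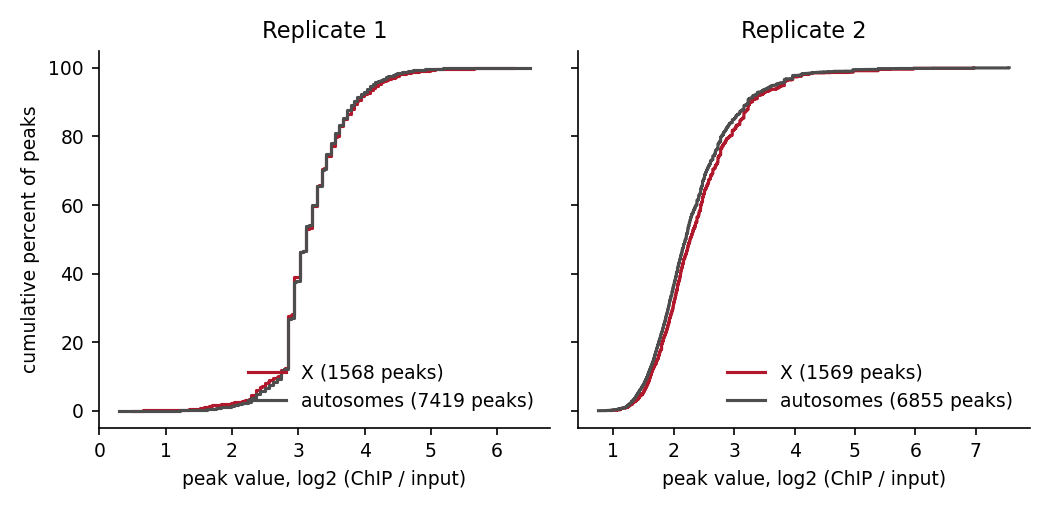
Cumulative percent of peaks (vertical axis) at or below each peak value (horizontal axis, log2 ratio of ChIP to input) for X (red) and autosomes (grey) in each replicate. The curves of X and autosomes lie close together in replicate 1, where both medians are 3.12, and in replicate 2 the X curve lies slightly to the right, with medians of 2.27 and 2.20.

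The values of replicate 1 move in coarse steps. On the X, 237 of 1568 peaks (15.1%) share the single value of 2.84, and the next common values are 2.94 (169 peaks), 3.03 (116 peaks), 3.12 (103 peaks) and 3.20 (97 peaks). When these are raised from the log2 scale they are 14, 15, 16, 17 and 18 times a step of 0.512, and 1417 of the 1568 X peaks (90.4%) are whole multiples of it within a tolerance of 1e-04. Of all X peaks, 896 (57.1%) are such multiples below 20 steps. The ranking of replicate 1 peaks in this range is therefore made of large ties. Values that are whole multiples of 1 step share a common base, so whether they carry a local input level is not known. Fold values of replicate 1 are given with this limit. The 1569 X peaks of replicate 2 take 644 distinct values, and the most common, 3.16, is held by 28 peaks (1.78%). Several of the highest values of that list were tied too, at 6.97 (2 peaks), 5.97 (4 peaks), 5.38 (6 peaks) and 4.97 (7 peaks). The top of the replicate 2 ranking is therefore coarse as well.

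At the upper end, the X held somewhat more of the strongest peaks than its share of the list, within wide intervals. In replicate 1, 25 of the 104 strongest peaks of the assembled chromosomes (the top 100 with ties) were on X, or 24.0% (exact 95% binomial interval 16.2 to 33.4), where the X holds 17.4% of all peaks. In replicate 2, 22 of 102 were on X, or 21.6% (14.0 to 30.8), where the X holds 18.6%. Of the 1061 strongest in replicate 2, 230 were on X (21.7%, 19.2 to 24.3), which is the only one of the 6 top sets examined whose interval lies above the X share of the list. The corresponding 1129 peaks of replicate 1 included 209 on X (18.5%, 16.3 to 20.9). Above a log2 value of 5 there were 10 X peaks in replicate 1 (0.638% of the X list, against 0.297% on autosomes) and 13 in replicate 2 (0.829% against 0.511%).

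The lists hold broad regions of at least 1000 bp. Median width on X was 1299 bp in replicate 1 and 1586 bp in replicate 2, and the widest peaks measured 5883 and 7047 bp. The autosomal medians were 1299 and 1498 bp, so that the X was equal in replicate 1 and 88 bp wider in replicate 2. Exactly 1000 bp was the width of 419 X peaks in replicate 1 (26.7%) and of 74 in replicate 2 (4.72%). Peaks wider than 2000 bp made up 11.7% of the X list in replicate 1 (184 peaks, 95% binomial interval 10.2 to 13.4, against 10.4% on autosomes) and 13.9% in replicate 2 (218 peaks, 12.2 to 15.7, against 11.9%). X peaks covered 10.4% of the chromosome in replicate 1, 11.5% in replicate 2 and 19.9% in both lists together. No peaks within an X list overlapped each other.

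Width and value went together in replicate 1 but not in replicate 2. Over the X peaks, Spearman's rho of value with width was 0.58 in replicate 1 and -0.21 in replicate 2, and on the autosomes it was 0.59 and -0.23. Peaks at the minimum width of 1000 bp had a median log2 value of 2.84 in replicate 1, below the 3.28 of wider X peaks. In replicate 2 they had a median of 2.92, above the 2.24 of wider X peaks. These correlations are across peaks of 1 library, which share depth and calling, and are given as a description. High values thus went with wide regions in replicate 1 and with narrow ones in replicate 2.

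Of the X peaks, 440 of 1568 in replicate 1 (28.1%, 95% binomial interval 25.8 to 30.4) and 439 of 1569 in replicate 2 (28.0%, 25.8 to 30.3) overlapped a peak of the other replicate by at least 1 bp. Over all assembled chromosomes the share was 25.7% in replicate 1 and 27.4% in replicate 2. The X share was thus close to this background, which lies just below its interval in replicate 1 and inside it in replicate 2. Among the large arms, the replicate 1 share ranged from 24.0% on 3R to 26.6% on 3L, below the X, and the replicate 2 share ranged from 25.5% on 2L to 28.9% on 3R. Most X peaks of either library had no counterpart in the other. The overlap can be read beside the part of the chromosome that the other list covers. The centers of 283 X peaks of replicate 1 (18.0%) lay inside a replicate 2 peak, where replicate 2 peaks cover 11.5% of the chromosome, a ratio of 1.57. In the other direction, 267 centers (17.0%, 15.2 to 19.0) lay inside a replicate 1 peak, where these cover 10.4%, a ratio of 1.64. On the autosomes the same ratios were 1.45 and 1.46.

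The overlapping peaks formed 429 shared regions on X, or 19.1 per Mb, of which 411 joined 1 peak of each replicate. Their median width, from the first to the last base of the joined peaks, was 2318 bp. Centers of the 450 overlapping pairs lay a median of 614 bp apart (quartiles 277 and 1042 bp). Of bins of 100 bp, the first held the most pairs, with 61 pairs against 33 between 100 and 200 bp and 29 between 200 and 300 bp. Autosomal pairs also had the most in the first bin, with 232, 133 and 152 pairs. From 100 to 1000 bp, the bins of X pairs held 23 to 37 pairs each, so most pairs lay beyond the raised first bin. In all, 94 X pairs (20.9%) had centers within 200 bp and 122 (27.1%) were more than 1000 bp apart.

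**Figure D3:**
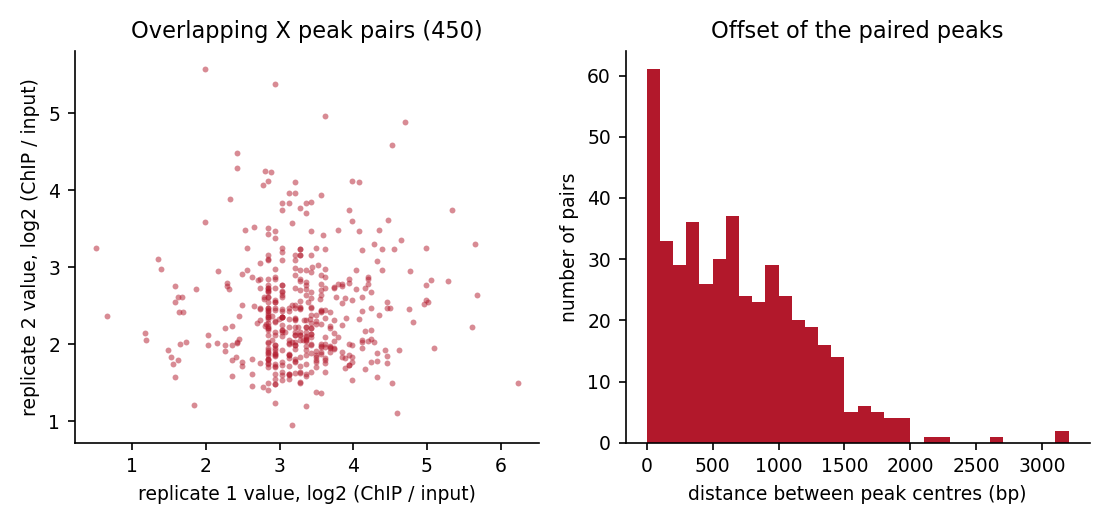
Left, the value of replicate 1 (horizontal) against the value of replicate 2 (vertical), both as log2 ratios of ChIP to input, for the 450 overlapping pairs of X peaks; right, the number of pairs by the distance between their centers in bins of 100 bp. The points form no diagonal (Pearson's r of 0.04), and 61 pairs fall in the first bin.

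Values of the overlapping X peaks were hardly related between the replicates. Over the 450 pairs, Pearson's r of the log2 value was 0.04 and Spearman's rho was 0.04. Widths of the paired peaks were related a little more closely, with r of 0.17 and rho of 0.22. On the other arms rho of the value lay between -0.02 on 2R and 0.15 on 3R. Of the 429 shared regions, 74 contained a peak in the top 10% of the X list by value in replicate 1 and 43 in replicate 2, and 13 did so in both. The strongest regions of replicate 1 were thus in the top 10% of replicate 2 in 17.6% of cases, against 10.02% of all shared regions.

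Wide X peaks overlapped a peak of the other library more often than narrow ones did, as on the autosomes. In replicate 1, 78 of 419 X peaks of exactly 1000 bp overlapped a replicate 2 peak (18.6%), against 107 of 184 X peaks wider than 2000 bp (58.2%, 95% binomial interval 50.7 to 65.4). In replicate 2, the same shares were 11 of 74 (14.9%) and 105 of 218 (48.2%, 41.4 to 55.0). On the autosomes the shares also rose, from 20.5% to 43.4% in replicate 1 and from 19.9% to 44.7% in replicate 2. A wider peak has more bases with which to overlap, and the rise with width was also seen for peak centers alone. The center of a replicate 1 peak lay inside a replicate 2 peak for 11.0% of X peaks of 1000 bp (8.15 to 14.4), close to the covered 11.5%, and for 41.3% of those wider than 2000 bp (34.1 to 48.8). For replicate 2 peaks, these were 8.11% (3.03 to 16.8) and 33.9% (27.7 to 40.6), with 10.4% covered.

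In replicate 1 the share of wide peaks that overlapped a peak of the other replicate was larger on the X than on the autosomes. In replicate 2 the shares were closer. On the autosomes, 333 of 768 replicate 1 peaks wider than 2000 bp overlapped a replicate 2 peak (43.4%, 39.8 to 46.9), against 58.2% on the X. The 4 large arms ranged from 40.6% on 3R to 45.2% on 3L. The autosomal share in replicate 2 was 44.7% (41.2 to 48.2), against 48.2% on the X, and the intervals overlap. Regions in which a peak wider than 2000 bp of each replicate overlapped numbered 48 on X, or 2.14 per Mb (exact 95% Poisson interval 1.58 to 2.84), and 136 on the autosomes, or 1.39 per Mb (1.17 to 1.64). The limit of 2000 bp was chosen after the widths had been seen, and these shares and densities are a description with no test. The intervals treat the peaks of 1 library as independent, so they may be too narrow and do not test X against autosomes.

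**Figure D4:**
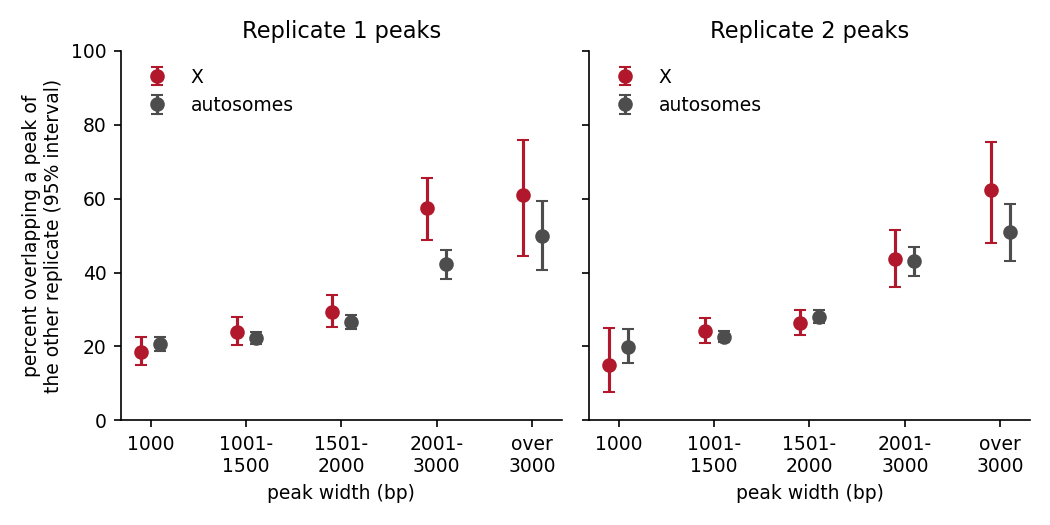
Percent of peaks that overlap a peak of the other replicate (vertical axis, with exact 95% binomial intervals) by peak width in bp (horizontal axis), for X (red) and autosomes (grey), in each replicate. The share on X rises from 18.6% at 1000 bp to 61.0% in the widest class in replicate 1 and from 14.9% to 62.3% in replicate 2.

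The shared proportion spanned a narrower range over classes of value than over classes of width. In 5 classes of the replicate 1 value, with ties kept together, the shares of X peaks found in replicate 2 were 27.3%, 21.4%, 22.8%, 33.0% and 36.9% from lowest to highest. Autosomal peaks in the same classes had shares of 23.7%, 23.0%, 22.4%, 25.4% and 32.2%, so the highest class was also the most shared there. In 5 classes of the replicate 2 value, the shares of X peaks found in replicate 1 were 23.0%, 30.5%, 28.4%, 32.7% and 25.2%. The autosomal shares were 29.1%, 27.1%, 28.2%, 25.3% and 25.6%, with the lowest class the most shared. The extremes of the lists differed more sharply. Of the 50 X peaks of highest value, 31 in replicate 1 were shared (62.0%, 47.2 to 75.3), against 28.1% of all X peaks. None of these 50 was 1000 bp wide. In replicate 2, 15 of 50 were shared (30%, 17.9 to 44.6), against 28.0% of all X peaks, and 15 of the 50 were 1000 bp wide. These 50 end within 13 X peaks tied at a log2 value of 3.97, so both counts of replicate 2 depend on the order of ties.

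The single strongest X peaks show the same contrast. In replicate 1 the strongest X peak lay from 5453564 to 5456584, with a log2 value of 6.23, the third highest on the assembled chromosomes. It overlapped a replicate 2 peak with a log2 value of 1.504, which is low in that list. The next lay from 7097909 to 7100186, from 10365821 to 10369330, from 8303450 to 8305586 and from 4318039 to 4322095, with log2 values of 5.68, 5.65, 5.62 and 5.34. All 5 were 2137 to 4057 bp wide and all 5 overlapped a replicate 2 peak, with log2 values there of at most 3.74. In replicate 2 the strongest X peaks lay from 6917515 to 6918514 and from 11784843 to 11785842, both at a log2 value of 6.97 and both 1000 bp wide. They were followed by 4 peaks tied at 5.97, of which the 3 lowest in position, from 711035 to 712208, from 8734095 to 8735094 and from 12128229 to 12129228, complete the 5. None of these 5 overlapped a replicate 1 peak, and the nearest replicate 1 centers were 2.51 to 28.9 kb away. How many tags these tied values rest on is not known, since the lists carry no read numbers for single peaks.

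Shared X regions were also ordered by the mean of their 2 ranks within the X lists, each divided by list length. The best lay from 3570226 to 3573383, with log2 values of 4.71 in replicate 1 and 4.89 in replicate 2. On the log2 reading these are 26.1-fold and 29.6-fold ChIP over input. That region was followed by 7497692 to 7499962, with log2 values of 4.53 and 4.59. These are the only members of the first 10 that ranked within the top 40 of the X peaks in both lists. The third region, from 4318039 to 4322095, had log2 values of 5.34 and 3.74, and the fourth, from 3631427 to 3636844, had 4.47 and 3.61. The fifth, from 18259142 to 18261357, had similar log2 values of 4.08 and 4.10, as did the seventh, from 12866245 to 12869340, with 3.99 and 4.12. The other members of the 10 lay from 10365097 to 10369432, from 12647018 to 12650770, from 17818966 to 17822150 and from 8650930 to 8653019, with log2 values from 4.36 to 5.65 in replicate 1 and from 3.24 to 3.48 in replicate 2. All 10 regions were 2090 to 5418 bp wide. Gene annotation of build dm3 was not used here, so the regions are given by position alone.

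The single widest X peak of each list had a moderate value. In replicate 1 the widest lay from 2014915 to 2020797 (5883 bp), with a log2 value of 3.54, and overlapped a replicate 2 peak of 2.59. In replicate 2 the widest lay from 16039659 to 16046705 (7047 bp), with a log2 value of 2.98 and a partner of 3.62 in replicate 1. Among the next widest of replicate 1, those from 3631427 to 3636844, from 12761736 to 12766144 and from 14824668 to 14828999 had higher log2 values of 4.47, 4.99 and 5.03. Of the 5 widest X peaks, 3 in replicate 1 and 4 in replicate 2 had a partner. The replicate 1 peaks from 793027 to 797569 and from 14824668 to 14828999 and the replicate 2 peak from 13743025 to 13747906, which were 4543, 4332 and 4882 bp wide, had none.

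Along the chromosome, peaks were spread over its whole length. The first X peak started at 20179 in replicate 1 and 39726 in replicate 2, and the last ended at 22411213 and 22417309. Over the 22 complete windows of 1 Mb, replicate 1 counts ranged from 41 to 95 with a median of 70.0, and replicate 2 counts from 43 to 91 with a median of 71.5. By the mean of both replicates, the window with most peaks was 17 to 18 Mb, with 95 peaks in replicate 1, 80 in replicate 2 and 32 shared regions. It was followed by 4 to 5 Mb, with 87 and 86 peaks and 31 shared regions. The windows from 5 to 6 Mb and from 9 to 10 Mb tied for the next place, with 93 and 74 peaks and with 76 and 91. By the same mean, the fewest peaks fell in the 3 windows at the centromeric end, with 62 and 57 peaks from 19 to 20 Mb, 41 and 65 from 20 to 21 Mb, and 47 and 43 from 21 to 22 Mb. The order differed between the lists, since the fullest window of replicate 2 was 9 to 10 Mb, and its window from 0 to 1 Mb, with 54 peaks, held fewer than that from 20 to 21 Mb. Over longer stretches shared regions were even, with 19.3 per Mb from 0 to 7 Mb and 19.25 from 7 to 15 Mb. From 15 to 22 Mb they stood at 19.3 per Mb. The peaks of the single lists were less even over these stretches. They stood at 76.6, 70.0 and 64.7 per Mb in replicate 1 and at 69.6, 74.5 and 65.3 in replicate 2. The 3 windows at the centromeric end held 15, 10 and 17 shared regions, each below the median of 18 per window.

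The longest stretches of X without a peak of either replicate lay in the same part of the chromosome. They ran from 21464973 to 21682727 (217755 bp), from 21684192 to 21846907 (162716 bp) and from 19781993 to 19855566 (73574 bp). The first and second are separated by a short interval covered by peaks, and no other stretch on X exceeded 100 kb. The median stretch between peaks of the combined lists was 4325 bp.

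Window counts of the 2 libraries moved together on X. Pearson's r over the 22 windows was 0.50 and Spearman's rho was 0.45. The same r was 0.08 on 2L, -0.03 on 2R, 0.33 on 3L and 0.44 on 3R. With windows of 500 kb, r was 0.55 on X over 44 windows, and between 0.11 and 0.51 on the other large arms. Windows share the sequence, its mappability and the calling procedure, so these are descriptions with no test of the difference between arms. The counts differed most in the windows from 0 to 1 Mb, with 78 peaks in replicate 1 and 54 in replicate 2, and from 20 to 21 Mb, with 41 and 65, which lie near opposite ends of the chromosome. Windows with 10 shared regions, the fewest, were 14 to 15 Mb and 20 to 21 Mb.

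**Figure D5:**
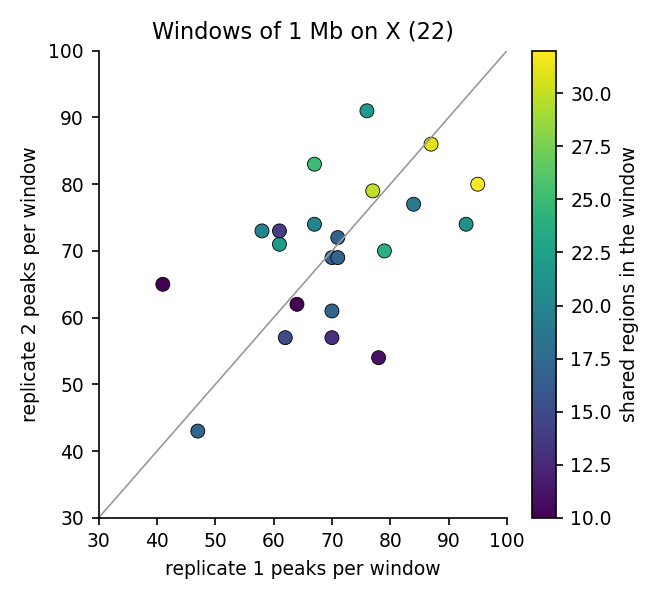
Peaks per 1 Mb window on X in replicate 1 (horizontal) against replicate 2 (vertical) for the 22 complete windows, colored by the number of shared regions; the grey line marks equal counts. The windows with 95 and 80 and with 87 and 86 peaks hold 32 and 31 shared regions, and the window with 47 and 43 peaks lies at the lower left.

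Neighboring X peaks were no closer to each other than on the autosomes. The median distance between neighboring peak centers was 9.72 kb on X in replicate 1 and 10.1 kb in replicate 2. On 2L, 2R, 3L and 3R it ranged from 8.24 to 9.40 kb in replicate 1 and from 9.74 to 10.3 kb in replicate 2. The distance to the nearest peak had a median of 5.75 kb and 5.74 kb on X, against 4.99 to 5.54 kb and 5.65 to 5.79 kb on the large arms. Pairs of peaks lying very close were less common on X. Peaks with a neighbor within 2 kb made up 7.398% of X peaks in replicate 1 and 4.97% in replicate 2, below every other arm, where the share ranged from 8.60% to 11.0% and from 6.18% to 8.77%. No test was made of these distances.

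In *D. miranda*, XL (the Muller A element) is derived from the same ancestral chromosome as the *D. melanogaster* X. Its density ratio to the autosomal elements Muller B, E and F was 1.09 in replicate 1 (exact 95% interval 0.989 to 1.19) and 1.04 in replicate 2 (0.988 to 1.09), and its median log2 value differed from theirs by 0.00 and -0.04. Both intervals include 1. Effects of species and of temperature cannot be told apart in this design, and the species were not tested against each other.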

How the data were processed

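The members and all comparisons were chosen with earlier results of these data known. According to the methods of the study and the labels, the authors aligned reads uniquely to dm3 (Bowtie, version not given in the sources used here), removed positions with anomalous tag counts, divided tag counts by library size, and used SPP with default settings to call peaks in each replicate without pooling. The number of aligned reads and the percentage stated for the ChIP library of replicate 2 do not match, so its depth is uncertain. The deposited values carry no name and were read here as log2 enrichment over input, a reading that the whole-number steps of replicate 1 after back-transformation led to. Start and end positions were used as deposited.

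Peaks were linked by an overlap of at least 1 bp with Python 3.11.15, pandas 2.3.3 and networkx 3.6.1, and intervals are exact (SciPy 1.17.1). The length of a chromosome was set to the last position that any peak of either list reached. Procedures were tested on simulated lists. Named regions were the 10 best by mean scaled rank, the 5 strongest and 5 widest peaks per list, the 3 fullest and emptiest windows and the 3 longest gaps. Classes of width and value replaced groups of equal size because of ties, after seeing the data. No genome or annotation of dm3 was used, so motifs and genes are not analysed here.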

Additional observations from a re-analysis of the deposited data

Results flagged for a closer look

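XHet, the heterochromatic sequence of the X that was left out of the comparisons, also carried CLAMP peaks, which is signal in data the comparisons did not use. There were 8 in replicate 1, with log2 values from 2.09 to 3.94 and a median of 2.89, and 11 in replicate 2, with log2 values from 1.75 to 5.38 and a median of 3.51. The X medians were 3.12 and 2.27, so that XHet peaks were lower than X peaks in replicate 1 and higher in replicate 2. The input libraries have no peak list used here, so these counts have no control level to be set against.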

How the results depend on the processing

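No paired analysis was possible because the groups that share replicate numbers are ChIP and input or different species, and only ChIP libraries have lists. The ratio of X to autosomes in replicate 1 (0.922) stayed below 1 with other chromosome lengths, without chromosome 4, without peaks of 1000 bp, with the 50% of highest value and with base pairs covered (0.904 to 0.941), but was 1.05 with only peaks wider than 2000 bp, chosen after seeing the data. The ratio in replicate 2 (0.999) went above 1 without chromosome 4 (1.003), with base pairs covered (1.03), with the 50% of highest value (1.09) and with only wide peaks (1.16). The shared region ratio (1.04) was 1.22 with the 50% of highest value and 1.54 with only wide peaks. With a replicate left out no region can be shared, and what remains are the peak ratios of the single lists, 0.922 and 0.999. The number of shared X regions, 429, was 224 with a reciprocal overlap of 50%, 94 with centers within 200 bp and 145 with the 50% of highest value. The same settings gave 14.3%, 5.99% and 17.5% of X peaks shared for replicate 1, and for replicate 2 the shares came to 14.3%, 5.99% and 17.0%. Without peaks of 1000 bp, 31.1% and 23.9% were shared. Differences in median value and width between X and autosomes moved by less than the SD of the differences of the replicates. The stricter overlaps, the 50% of highest value and the limits on width keep fewer peaks or fewer pairs by construction. Other chromosome lengths and base pairs covered keep every peak. Causes of the changes were not tested. Read numbers behind single peaks are not in the lists, which limits the ranking of weak peaks.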
